A study of Heterocephalus glaber with 3 samples.

Results

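Cells with high resistin (RETN) transcript were examined in lung tumours of the naked mole-rat (Heterocephalus glaber), a long-lived rodent. A cell was called RETN-high when it carried at least 4 RETN UMIs per 10,000 of its UMIs and at least 2 RETN UMIs, fewer than 10 GPNMB UMIs per 10,000 and fewer than 5 UMIs per 10,000 of CD3D, CD3E and CD3G together, where a UMI is a unique molecular identifier and counts 1 captured transcript. GPNMB marks lipid-laden macrophages and the CD3 genes mark T cells, so both kinds of cell were kept out. The rule took 1722 of the 25044 cells that passed quality control, which asked for at least 1000 UMIs and 500 genes per cell and under 20% of UMIs in 13 mitochondrial genes. All cells came from 1 group of 3 tumour-bearing animals, replicates 1 to 3, harvested 15 weeks after infection with an adenovirus that carried CRISPR reagents. Per the labels, the edits in all 3 animals included loss of Rb and an inversion that involves Eml4 and Alk, and no untreated animal was part of the group, so every comparison set cell classes of the same animals against each other. Tumours had been cut away from the lung by hand and dissociated before droplet capture with 10x Genomics 3′ chemistry, 1 library per animal.

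Resistin is a small secreted protein rich in cysteine. In mice it is made mainly by fat cells, whereas in humans it comes mainly from monocytes, macrophages and granulocytes. MMP8, the neutrophil collagenase, is stored in the specific granules of neutrophils, which are filled while the cells mature in the bone marrow. Azurophil granules, which hold elastase (ELANE), proteinase 3 (PRTN3) and myeloperoxidase (MPO), are made earlier, at the promyelocyte stage, and lactoferrin (LTF) and CRISP3 belong to the later specific granules. MMP7, matrilysin, is better known from epithelial cells, while MMP12 is the elastase of macrophages. Macrophages are usually told apart by the complement C1q chains, the mannose receptor MRC1 and the scavenger receptor MSR1, and neutrophils by the receptors CSF3R, CXCR1 and CXCR2.

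The RETN-high cells were 442 of 8078 cells (5.47%) in replicate 1, 216 of 9015 (2.40%) in replicate 2 and 1064 of 7951 (13.4%) in replicate 3. The 3 animals thus differed severalfold, with no overlap of the 95% exact binomial intervals, which cover counting error only and ran over 4.99 to 5.99%, 2.09 to 2.73% and 12.6 to 14.2%. Depth did not start at the same level: the lowest UMI total among cells that passed was 1298 and 1150 in replicates 1 and 2 and 2174 in replicate 3, and at a limit of 2000 UMIs the shares were 4.93%, 2.16% and 13.4%. The mean share was 7.08 ± 5.67% (SD, n = 3 animals). Median RETN, the value that chose the cells, was 14.5, 12.2 and 15.5 UMIs per 10,000 in replicates 1, 2 and 3. The RETN-high cells held 72.1%, 53.1% and 79.8% of all RETN UMIs of the cells that passed quality control. Summed over cells, RETN stood at 1985, 1408 and 2324 CPM (counts per 1000000 UMIs of the summed cells) in RETN-high cells and at 42.8, 35.7 and 104 CPM in all other cells, a difference that follows from the rule and was not tested. The rule cut through a continuous range, since 147 members lay between 4 and 5 UMIs per 10,000 and 137 cells that met the other conditions lay between 3 and 4. Members just inside had 32.5, 163 and 48.1 CPM of MMP8 and 902, 962 and 1068 CPM of MRC1 in the 3 animals, while cells just outside had 80.5, 41.3 and 36.7 CPM of MMP8 and 1034, 782 and 869 CPM of MRC1. The 2 sides of the limit overlapped in both genes.

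**Figure D1:**
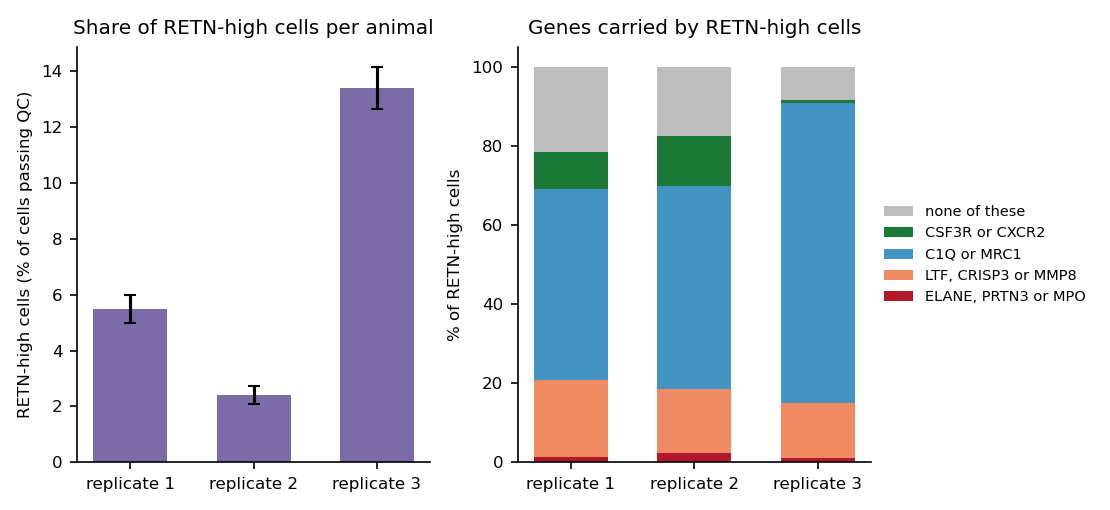
Left, share of RETN-high cells among cells that passed quality control in each animal, with 95% exact binomial intervals. Right, share of RETN-high cells that carried the named genes at 4 or more UMIs per 10,000 and 2 or more UMIs, each cell counted once in the order from the bottom up; cells with C1Q or MRC1 were 48.2% to 75.8% of RETN-high cells, the most frequent kind in every animal.

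Depth per library was 76093932 to 91949365 UMIs over 9500 to 10000 barcodes. Median depth was 4792, 5696 and 10840 UMIs in RETN-high cells of replicates 1, 2 and 3, against 5035, 5182 and 7743 UMIs in all other cells. The libraries shared 21 to 31 barcodes in pairs, with no equal UMI total and none that was RETN-high in both libraries of a pair. A doublet score of at least 0.2 was given to 444 cells, 33 of them RETN-high, and these were kept in the main values. Of the study's 23189 features, 11611 have no gene symbol in the files, so S100A8, S100A9, LCN2, CAMP, CD68 and CD163 were not matched by symbol and are not analysed here. The labels give 3 animals, and each animal is the replicate throughout.

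Checked against markers, the cells carried myeloid genes. TYROBP, an adaptor of myeloid activating receptors, was found in 99.5%, 99.1% and 99.2% of RETN-high cells, against 50.3%, 67.9% and 63.7% of cells with CD3 genes at 5 or more UMIs per 10,000; with each cell thinned to 1000 UMIs these shares were 97.3%, 94.9% and 95.6%, against 25.8%, 33.9% and 33.9%. Its level was 5746, 4710 and 6076 CPM in RETN-high cells and 2203, 2392 and 2723 CPM in all other cells, higher in each animal with no overlap. CD3 genes were capped by the rule; the 5 other T cell markers measured summed to 3.49 to 7.42 CPM in RETN-high cells and 5.996 to 13.3 CPM in other myeloid cells, which had the same cap. Summed markers of fibroblasts and mural cells were 165 to 384 CPM in RETN-high cells and 1312 to 2588 CPM in all other cells. The 2 eosinophil markers measured, CCR3 and IL5RA, summed to 0, 0.873 and 0.244 CPM in RETN-high cells. By these markers the cells were not all macrophages, all monocytes or all neutrophils. Summed macrophage markers stood at 2911, 3037 and 3534 CPM in RETN-high cells, 6700.4, 6234 and 5058 CPM in other myeloid cells and 6223, 5071 and 6461 CPM in all other cells, lower in RETN-high cells of each animal. Against all other cells that order rests on Apoe, without which the sums were 2379, 2608 and 2905 CPM in RETN-high cells and 1714, 2188 and 1729 CPM in all other cells, higher in RETN-high cells of each animal. Without Apoe other myeloid cells had 5607, 4888 and 3979 CPM, still above RETN-high cells. Summed monocyte markers stood at 3388, 2759 and 2726 CPM in RETN-high cells, 3837, 3556 and 3078 CPM in other myeloid cells and 2057, 2339 and 1684 CPM in all other cells. S100A4 alone was 1857, 1527 and 1947 CPM in RETN-high cells and 2316, 2274 and 2377 CPM in other myeloid cells, and the lower sums against other myeloid cells rest largely on it. S100A4 was also found in 91.3%, 90.5% and 96.6% of cells with CD3 genes at 5 or more UMIs per 10,000. Summed neutrophil markers stood at 1182, 1006 and 539 CPM in RETN-high cells, 142, 1484 and 139 CPM in other myeloid cells and 119, 574 and 72.3 CPM in all other cells, and MMP9 made up 1428 of the 1484 CPM in replicate 2. MMP8 is on that list and was named with the rule. Other myeloid cells are cells of the same tumours with no RETN UMI, under the same limits for GPNMB and the CD3 genes. They held at least 3 of the 4 pan-myeloid genes measured (TYROBP, CSF1R, CYBB and CD14) and 10 UMIs per 10,000 of them.

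To see which cells carried which genes, each RETN-high cell was placed in the first of 4 kinds whose genes it held together at 4 or more UMIs per 10,000 and 2 or more UMIs. These kinds were chosen after the values were seen, so they are a description and their genes were not tested. Azurophil granule genes ELANE, PRTN3 or MPO marked 23 cells (1.34% of all RETN-high cells). LTF, CRISP3 or MMP8 marked 268 cells (15.6%), C1Q chains or MRC1 marked 1131 cells (65.7%), and CSF3R or CXCR2, counted together with CXCR1, marked 79 cells (4.59%). This last kind was 9.50%, 12.5% and 0.940% of RETN-high cells in replicates 1, 2 and 3. Whatever the order, its limit was reached by 124 RETN-high cells, 65, 38 and 21 in the 3 animals. The remaining 221 cells (12.8%) reached none of these limits. The kinds were not exclusive, since 182 cells met the limit of at least 2 of them. As each cell went to the first kind it met, low levels of an earlier kind's genes in a later kind follow from the order.

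The C1Q or MRC1 cells were 48.2%, 51.4% and 75.8% of RETN-high cells in replicates 1, 2 and 3. Replicate 3 has no cell under 2000 UMIs, whereas 129 and 64 RETN-high cells of replicates 1 and 2 lie under that limit; above it, a comparison added after the data were seen, the shares were 61.7%, 69.7% and 75.8%. The C1Q or MRC1 cells had median depths of 9882, 14162 and 12015 UMIs. Beyond the genes that marked them, they held MSR1, the class A scavenger receptor, at 524, 393 and 489 CPM, and the lysosomal protease CTSD at 1676, 2368 and 2471 CPM. PADI4 and CSF3R, which did not place cells ahead of this kind, were at 18.0 to 23.5 CPM and 4.90 to 13.1 CPM. Median RETN was 10.1, 8.09 and 13.6 UMIs per 10,000, the lowest of the 5 kinds in replicates 1 and 2 but not in replicate 3.

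The azurophil kind counted 6, 5 and 12 cells in replicates 1, 2 and 3. Among all cells that passed quality control, 25 reached the limit for ELANE, PRTN3 and MPO, and 23 of these were RETN-high, while 24 carried at least 1 RETN UMI. All 23 held transcripts of all 3 genes. ELANE was at 9107, 19916 and 20153 CPM in these cells, PRTN3 at 6349, 15753 and 12657 CPM, and MPO at 2514, 6261 and 4683 CPM. These 3 values are what chose the cells. RETN in them had medians of 58.9, 88.8 and 139 UMIs per 10,000, above the medians of the other kinds in each animal. MMP8 was at 0, 0 and 9.74 CPM and none of the 23 cells was MMP8-high, in a class where 179 of 1722 cells (10.4%) were, so that 23 cells are too few to read a difference from this. MYB, a transcription factor of blood progenitors, stood at 114, 200 and 166 CPM, against 5.80, 2.10 and 4.46 CPM in the LTF, CRISP3 or MMP8 kind. The topoisomerase TOP2A, a gene of dividing cells, was at 490, 599 and 312 CPM and UBE2C at 686, 1166 and 331 CPM. These 23 cells held 3226 of the 3244 ELANE UMIs of all RETN-high cells.

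The LTF, CRISP3 or MMP8 kind counted 86, 35 and 147 cells, or 19.5%, 16.2% and 13.8% of RETN-high cells. In it FCN1, the lectin ficolin 1 of monocytes and neutrophils, was at 1472, 926 and 969 CPM, and the decoy interleukin 1 receptor IL1R2 was at 739, 288 and 441 CPM. PADI4, the enzyme that citrullinates histones in neutrophils, stood at 381, 124 and 201 CPM. Macrophage genes were present in the same sums, with the mannose receptor MRC1 at 628, 1027 and 873 CPM. The receptors CSF3R and CXCR2 were low, at 34.8, 21.0 and 4.46 CPM and at 26.1, 23.1 and 2.97 CPM.

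The CSF3R or CXCR2 kind counted 42, 27 and 10 cells and was shallow, with medians of 1512, 1514 and 2851 UMIs. It stood out by CFD, complement factor D, at 12111, 10284 and 8927 CPM and by interleukin 1 beta (IL1B) at 11481, 10523 and 6259 CPM. FCN1 reached 2713, 2326 and 2497 CPM and PADI4 822, 957 and 1163 CPM. CSF3R, one of the genes that chose these cells, stood at 466, 630.5 and 239 CPM here, against the 34.8, 21.0 and 4.46 CPM given for the LTF, CRISP3 or MMP8 kind. Cells of none of the kinds also had CFD at 4731, 3562 and 1427 CPM and, like the CSF3R or CXCR2 kind, were shallow in replicates 1 and 2, with medians of 1725, 1456 and 4636 UMIs. In these remaining cells the immunoglobulin light chain IGKC was at 18791, 2809 and 31355 CPM and the collagen COL1A1 at 53.2, 970 and 1071 CPM, and the part of RNA from other cells in these values was not tested.

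**Figure D2:**
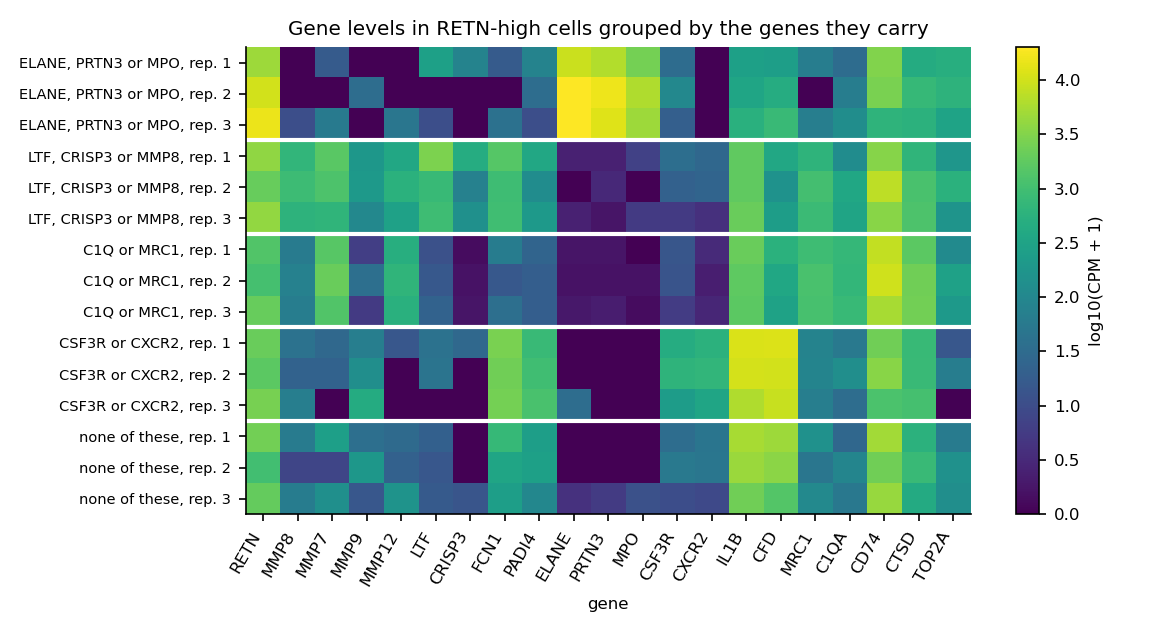
Level of 21 genes, as log10 of CPM plus 1, in RETN-high cells summed by kind (rows, 5 kinds in 3 animals each). ELANE, PRTN3 and MPO are at high level in the top 3 rows, LTF and MMP8 lead in the next 3, MRC1 and C1QA in the middle rows, and CFD and IL1B in the CSF3R or CXCR2 rows; the genes named on the left chose the rows.

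MMP8 was present in a minority of RETN-high cells. A UMI of MMP8 was found in 29.9%, 34.3% and 38.5% of RETN-high cells in replicates 1, 2 and 3, against 3.73%, 3.72% and 6.30% of all other cells. In cells with CD3 genes at 5 or more UMIs per 10,000, which as T cells should lack the gene and had medians of 2615, 2801 and 3224 UMIs, the share was 1.22%, 0.864% and 2.09%. With each cell thinned to 1000 UMIs the shares were 11.1%, 12.5% and 9.40% in RETN-high cells and 0.825%, 0.784% and 1.13% in all other cells. MMP8 averaged over all cells stood at 172, 242 and 124 CPM in RETN-high cells, 30.9, 19.7 and 41.1 CPM in other myeloid cells and 11.7, 10.2 and 15.2 CPM in all other cells. RETN-high cells were above both sets in every animal; as MMP8 was named together with the rule, no test is given. Of all MMP8 UMIs, 45.1%, 40.5% and 59.2% lay in RETN-high cells.

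MMP7 was found more widely outside RETN-high cells than MMP8 and is likewise given without a test. It stood at 1402, 1693 and 1206 CPM in RETN-high cells, 905, 495 and 876 CPM in other myeloid cells and 377, 313 and 436 CPM in all other cells. A UMI of MMP7 was found in 36.6%, 38.9% and 54.9% of RETN-high cells, 32.9%, 32.6% and 38.1% of other myeloid cells and 12.3%, 12.8% and 13.6% of the CD3 cells. RETN-high cells held 17.1%, 13.4% and 32.9% of all MMP7 UMIs, smaller shares than for MMP8 in each animal. The azurophil kind carried 16.3, 0 and 58.4 CPM of MMP7 and the CSF3R or CXCR2 kind 27.4, 21.7 and 0 CPM, whereas the C1Q or MRC1 kind carried 1546, 2064 and 1362 CPM. Among RETN-high cells of at least 5000 UMIs, MMP7 was found in 63.6%, 70.5% and 66.5% of cells with MMP8 and in 57.1%, 59.3% and 61.9% of cells without it. Median depth was 16227, 19366 and 15139 UMIs in the cells with MMP8 and 10772, 11635 and 11403 UMIs in those without, and its part in the shares was not tested.

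Members of high and low RETN differed in granule and complement genes. In cells of 50 or more RETN UMIs per 10,000, which were 49, 9 and 114 cells, LTF stood at 4654, 1875 and 831 CPM and FCN1 at 1195, 2379 and 779 CPM. In cells of 4 to 10 RETN UMIs per 10,000, the 137, 85 and 361 lowest, LTF stood at 143, 10.9 and 33.0 CPM and FCN1 at 63.9, 47.8 and 38.7 CPM. C1QB went the other way, at 119, 47.3 and 284 CPM in the cells of highest RETN and 593, 426 and 633 CPM in the cells of lowest RETN among members. In all 3 animals LTF and FCN1 were higher and C1QB lower at the high end, where replicate 2 has 9 cells; as RETN chose the cells, these values are a description. MMP8 was at 296, 1733 and 306 CPM in the high cells and at 71.2, 143 and 64.1 CPM in the low ones. In replicate 1 alone it was higher at 20 to 50 RETN UMIs per 10,000, at 340 CPM, than in the high cells. Median depth was 3040, 4056 and 6809 UMIs in the high cells and 8964, 15708 and 9709 UMIs in the low ones, and its part in these values was not tested.

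RETN-high cells were next compared with all other cells, by UMI sums per animal and class, with the animal as a block. With edgeR and Benjamini-Hochberg adjustment over 14426 genes, 2390 were higher and 3279 lower in RETN-high cells at an adjusted p under 0.05, which is 39.3% of the genes tested (16.6% higher, 22.7% lower). Cells were picked by their own RETN count, so genes that vary with RETN from cell to cell differ by that choice, and these p-values measure only how evenly the difference recurs in 3 animals. Of 4 pan-myeloid genes tested, all 4 were higher. Of 9 neutrophil markers 8 were higher, of 8 monocyte markers 6, and of 10 macrophage markers 4, with 3 lower. On the log2 scale the median was 1.01 for the pan-myeloid list, 2.98 for the neutrophil list, 0.58 for the monocyte list and 0.04 for the macrophage list, beside -0.03 over all genes tested. The neutrophil list includes ELANE and MPO, whose UMIs in RETN-high cells lay almost wholly in the 23 azurophil cells.

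FCN1 stood at 432, 271 and 155 CPM in RETN-high cells and at 29.7, 9.94 and 11.7 CPM in all other cells. It was higher by 4.19 ± 0.17 on the log2 scale (SE; edgeR with Benjamini-Hochberg adjustment, adjusted p = 1.2e-10), with no overlap. LTF stood at 553, 177 and 122 CPM in RETN-high cells and 31.7, 8.07 and 12.6 CPM in all other cells, again apart in every animal (log2 difference 4.02 ± 0.19). SERPINB4, a serpin of squamous epithelium, stood at 128, 63.3 and 57.9 CPM in RETN-high cells, against 7.56, 5.68 and 8.02 CPM (log2 difference 3.54 ± 0.19). SERPINB2, the inhibitor of plasminogen activators that macrophages make, the cysteine protease inhibitor CSTA, the lectin receptor CLEC4D and the glycoprotein LRG1, which neutrophils store in granules, were higher by 1.89 to 2.02 on the log2 scale. The chemoattractant receptor FPR1 was higher by 1.88 ± 0.21 and IL23A, a subunit of interleukin 23, by 1.96 ± 0.11.

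Inflammatory cytokines were mostly higher, 7 of 13, with 1 lower, where 16.6% of all genes tested were higher and 22.7% lower. IL1B stood at 2443, 2081 and 1761 CPM in RETN-high cells and at 837, 920.4 and 799.8 CPM in all other cells (log2 difference 1.37 ± 0.09), and TNF was higher by 1.06 ± 0.08. Of 10 MHC class II genes, which present antigen to T cells, 8 were higher. MRC1 was higher by 1.46 ± 0.10 and MSR1 by 0.86 ± 0.08, while the apolipoprotein gene Apoe was lower, at 531, 429 and 629 CPM in RETN-high cells and 4508, 2883 and 4732 CPM in all other cells (log2 difference -2.83 ± 0.08). Of 16 matrix metalloproteinases and their inhibitors tested, MMP8 and MMP7 left aside, 3 were higher and 10 lower. MMP12 was higher by 1.21 ± 0.14, whereas the stromelysin MMP3 was lower by a log2 difference of -3.45 ± 0.31 and the inhibitor TIMP1 by -2.09 ± 0.08. MMP9, gelatinase B, was lower at -1.04 ± 0.31, but stood at 42.5, 84.7 and 16.6 CPM in RETN-high cells and 44.4, 522 and 25.3 CPM in all other cells, and without replicate 2 the difference was -0.29 (edgeR with Benjamini-Hochberg adjustment, adjusted p = 0.18); it did not pass with DESeq2 either. With each cell thinned to 1000 UMIs MMP9 was higher instead, by 0.92.

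The largest negative folds against all other cells included many genes of other lineages. The surfactant gene SFTPC of alveolar epithelium stood at 57.5, 41.5 and 279 CPM in RETN-high cells and 988, 609 and 2765 CPM in all other cells (log2 difference -3.65 ± 0.11). The epithelial inhibitor SPINK5, the T cell receptors CD27, TNFRSF4 and TNFRSF18, the smooth muscle gene TAGLN and IGFBP5, SERPINE2 and COCH were lower by -4.45 to -3.61 on the log2 scale. ATP6V0D2, a proton pump subunit of osteoclasts, was lower by -3.97 ± 0.23, with 206 CPM in all other cells of replicate 2 and 6.96 and 12.8 CPM in those of replicates 1 and 3. All 10 fibroblast and mural genes were lower, where 22.7% of all genes tested were lower.

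**Figure D3:**
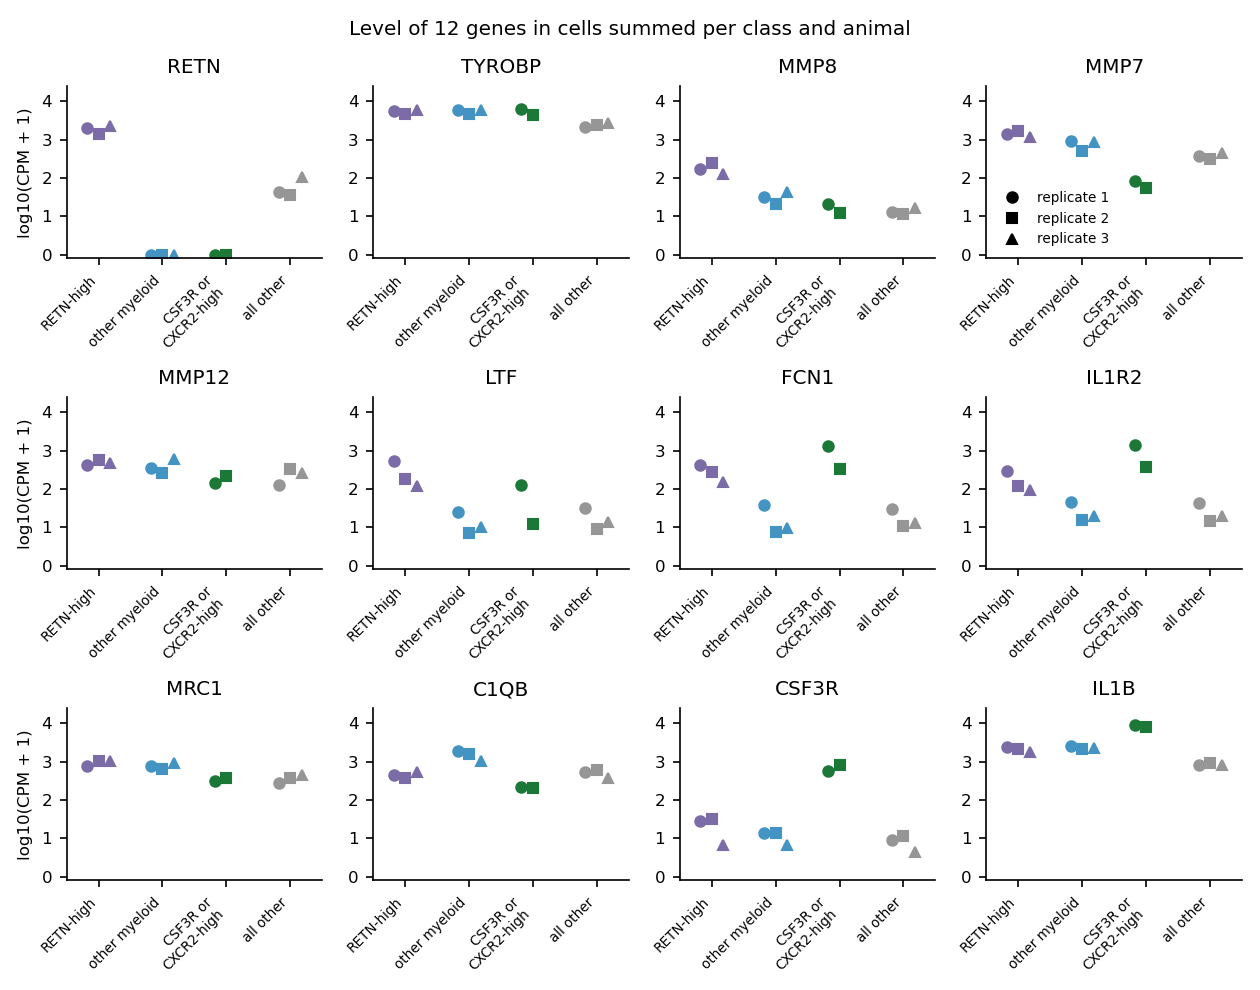
Level of 12 genes, as log10 of CPM plus 1, in UMI sums per class and animal; circles, squares and triangles are replicates 1, 2 and 3. RETN-high cells lie above other myeloid cells in MMP8, LTF, FCN1 and IL1R2 in each animal, beside them in TYROBP and MRC1 and below them in C1QB. They lie far below CSF3R or CXCR2-high cells in IL1B, and also in CSF3R, which helped to choose those cells. TYROBP helped to choose the other myeloid cells. RETN chose the classes and is 0 in the middle 2 by their definition.

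Against the other myeloid cells, 1214, 1671 and 992 in replicates 1, 2 and 3, RETN-high cells had more neutrophil granule transcripts and less complement C1q. With edgeR and Benjamini-Hochberg adjustment over 11344 genes, 264 were higher and 375 lower in RETN-high cells, or 5.63% of those tested (2.33% higher, 3.31% lower). Of 9 neutrophil markers 7 were higher and none lower, with a median log2 difference of 2.85, beside 0.00 over all genes. ELANE and MPO are on that list, and their UMIs lay almost wholly in the 23 azurophil cells of 1722 members. CEBPE, also on the list, had no call without those 23 cells. Of 9 macrophage markers none was higher and 6 were lower, with a median of -1.31. Without replicate 1 the counts were 21 higher and 64 lower, and without replicate 2 they were 120 and 232. With the pan-myeloid minimum set for RETN-high cells too, an alternative added after the data were seen, they were 345 and 526. Among the named genes, LTF, FCN1, PADI4, IL1R2, IFIT3 and CD74 passed without each animal in turn.

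The strongest differences lay in the azurophil genes, whose UMIs in RETN-high cells came almost wholly from 23 cells. PRTN3 stood at 105, 207 and 107 CPM in RETN-high cells and 0.0999, 0.5004 and 0.824 CPM in other myeloid cells, a log2 difference of 8.33 ± 0.26. ELANE differed by 7.57 ± 0.15 and MPO by 6.94 ± 0.31. The 23 azurophil cells held 3226 of the 3244 ELANE UMIs of the class. They held 389 of 392, 473 of 475 and 1300 of 1316 PRTN3 UMIs in replicates 1, 2 and 3. For MPO they held 154 of 158, 188 of 189 and 481 of 498 UMIs. The 3 values therefore describe those cells and not the class. Other myeloid cells had only 1, 9 and 8 PRTN3 UMIs and 3, 6 and 9 MPO UMIs. With the 23 cells left out the ELANE difference was -0.13, as their choice by these genes fixes. CEBPE, a transcription factor of granulocyte maturation, was higher by 1.65 ± 0.35, and by 1.32 (adjusted p = 0.083, edgeR with Benjamini-Hochberg adjustment) without those cells, an alternative added after the data were seen.

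Specific granule and neutrophil genes outside the azurophil set were also higher. LTF stood at 553, 177 and 122 CPM in RETN-high cells and at 24.4, 6.23 and 9.37 CPM in other myeloid cells, apart in every animal (log2 difference 4.43 ± 0.20; edgeR with Benjamini-Hochberg adjustment, adjusted p = 5.9e-05). CRISP3 was at 89.3, 16.6 and 17.0 CPM in RETN-high cells and at 1.70, 0.0556 and 0.721 CPM in other myeloid cells (log2 difference 5.78 ± 0.32). FCN1 was higher by 4.37 ± 0.30, PADI4 by 2.87 ± 0.23 and IL1R2 by 2.78 ± 0.13. The chemokine receptors CXCR1 and CXCR2 were higher by 2.85 ± 0.32 and 2.57 ± 0.32, though at low level, with 3.09 to 22.3 CPM of CXCR2 in RETN-high cells and 1.34 to 3.498 CPM in other myeloid cells. The receptor for granulocyte colony stimulating factor, CSF3R, was at 28.0, 30.1 and 5.76 CPM in RETN-high cells and 13.2, 12.95 and 5.77 CPM in other myeloid cells, overlapping in replicate 3 and not past the threshold (log2 difference 0.90 ± 0.24; adjusted p = 0.074, edgeR with Benjamini-Hochberg adjustment). Without replicate 3 it passed, at 1.23.

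Macrophage genes were lower rather than absent. C1QB stood at 449.9, 369.9 and 534 CPM in RETN-high cells and 1939.9, 1559 and 1021 CPM in other myeloid cells (log2 difference -1.64 ± 0.20; edgeR with Benjamini-Hochberg adjustment, adjusted p = 0.005). C1QA and C1QC differed by -1.31 ± 0.16 and -1.43 ± 0.21, Apoe by -1.09 ± 0.14 and MERTK, a receptor for the uptake of dead cells, by -0.77 ± 0.15. VSIG4, the complement receptor of resident macrophages, was unseen in RETN-high cells of all 3 animals and stood at 5.80, 7.51 and 1.96 CPM in other myeloid cells. MRC1 did not follow, at 782, 1026 and 1022 CPM in RETN-high cells and 754, 650.2 and 914 CPM in other myeloid cells (log2 difference 0.35 ± 0.11; adjusted p = 0.13, edgeR with Benjamini-Hochberg adjustment). The fractalkine receptor CX3CR1 differed by -2.05 ± 0.20 and the lysosomal protease LGMN by -2.19 ± 0.17, whereas CTSD was higher by 0.41 ± 0.08. Without replicate 1 the 3 C1Q genes, Apoe and MERTK had the same sign with adjusted p of 0.07 to 0.18 (edgeR with Benjamini-Hochberg adjustment).

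Most interferon response genes tested, all 3 chemokines and fewer than 5 of 10 MHC class II genes were lower, where 3.31% of all genes tested were lower. CD74, the invariant chain, stood at 6724, 8572 and 5143 CPM in RETN-high cells and 11048, 12933 and 7642 CPM in other myeloid cells (log2 difference -0.56 ± 0.05; edgeR with Benjamini-Hochberg adjustment, adjusted p = 0.0015), and 4 of 10 MHC class II genes were lower and none higher. Of 9 interferon response genes 7 were lower and none higher. IFIT3 stood at 113, 52.4 and 6.66 CPM in RETN-high cells and 335, 178 and 18.6 CPM in other myeloid cells (log2 difference -1.54 ± 0.09), so replicate 3 was low in both classes and the difference held in each animal. ISG15 differed by -1.37 ± 0.11, the interferon-induced chemokine CXCL11 by -2.46 ± 0.26 and the ectoenzyme CD38 by -2.17 ± 0.11. All 3 chemokines tested in the chemokine list were lower, CCL17 at -2.14 ± 0.15, CCL22 at -1.56 ± 0.14 and CCL2, which attracts monocytes, at -0.75 ± 0.10. CCL17 and CCL22 are also dendritic cell markers, and the summed dendritic markers were 71.3, 76.0 and 112 CPM in RETN-high cells and 154, 258 and 212 CPM in other myeloid cells; their part in the result was not tested.

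Lipid genes changed in both directions, 4 of 11 on the list being higher and 3 lower, where 2.33% of all genes tested were higher and 3.31% lower. PPARG, the nuclear receptor of fat cells and alveolar macrophages, stood at 62.9, 63.8 and 73.1 CPM in RETN-high cells and 25.7, 13.5 and 38.3 CPM in other myeloid cells, with no overlap (log2 difference 1.49 ± 0.22; edgeR with Benjamini-Hochberg adjustment, adjusted p = 0.0097). The lipid droplet protein PLIN2 was at 290.2, 295 and 336 CPM in RETN-high cells and 157, 94.1 and 227 CPM in other myeloid cells (log2 difference 1.09 ± 0.18). CYP7A1, which is not on the list and is known from the liver as the rate-limiting enzyme of bile acid synthesis, was higher by 1.11 ± 0.18, the fatty acid binding protein FABP4 by 2.73 ± 0.48 and lipoprotein lipase LPL by 0.63 ± 0.10. Apoe was among the 3 lower ones. PPARG, FABP4 and PLIN2 are also on the alveolar macrophage list, whose MARCO was lower, and that list summed to 898, 1121 and 863 CPM in RETN-high cells and 675, 562 and 581 CPM in other myeloid cells. Without replicate 1 none of the 5 genes named here passed, and FABP4, which was at 45.2 CPM in RETN-high cells of that animal and 3.06 and 10.9 CPM in those of the others, differed by 1.63.

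Of 11 cell cycle genes tested 4 were higher, none lower and 7 did not pass, where 2.33% of all genes tested were higher. TOP2A stood at 126, 335 and 194 CPM in RETN-high cells and 90.9, 145 and 140.0 CPM in other myeloid cells (log2 difference 0.78 ± 0.15; edgeR with Benjamini-Hochberg adjustment, adjusted p = 0.024). UBE2C, CDK1 and MCM3 were higher by 0.80 ± 0.14, 0.72 ± 0.15 and 0.49 ± 0.10, and without replicate 1 none of the 4 passed, with values of 0.40 to 0.97. IL1A was the one inflammatory cytokine of 11 that was higher, by 0.62 ± 0.07, and IL10 was lower by a log2 difference of -1.67 ± 0.14. IL1B stood at 2443, 2081 and 1761 CPM in RETN-high cells and 2589, 2162 and 2279.8 CPM in other myeloid cells, a log2 difference of -0.11 ± 0.08 that did not pass. The angiopoietin receptor TEK, the activation marker CD69 and the adaptor SAMSN1 were higher by 1.38 ± 0.31, 1.33 ± 0.21 and 1.11 ± 0.19. MMP12 was at 413, 566 and 482 CPM in RETN-high cells and 348, 262 and 621 CPM in other myeloid cells, higher in 2 animals and lower in replicate 3 (log2 difference 0.39 ± 0.24, not past the threshold; without replicate 3 it passed at 0.76).

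Among genes with a mean of at least 50 CPM in the higher class, the largest negative fold against other myeloid cells was in a gene of osteoclasts. ATP6V0D2 was at 0.807, 7.86 and 1.30 CPM in RETN-high cells and 21.3, 590.2 and 32.8 CPM in other myeloid cells. Summed osteoclast markers were 13.4, 29.3 and 11.9 CPM in RETN-high cells and 52.4, 694 and 51.6 CPM in other myeloid cells, so replicate 2 stands apart among other myeloid cells. MMP9 was at 84.7 CPM in RETN-high cells of replicate 2 and 1428 CPM in its other myeloid cells. The part of osteoclast-type cells in the differences of ATP6V0D2, ATP6V1G3 (-2.98 ± 0.40) and ATP1B1 (-2.24 ± 0.36) was not tested. Neither of the last 2 passed without replicate 1. The peroxidase GPX3 and the secreted protein OLFML3 were lower by -2.78 ± 0.15 and -2.09 ± 0.17.

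Among 10 genes of resistin binding and signalling, 3 of 7 tested were higher and 1 lower in RETN-high cells than in all other cells, where 39.3% of all genes passed, so this count is not particular. TLR4, a receptor that resistin has been reported to bind in human cells, stood at 40.3, 33.6 and 22.3 CPM in RETN-high cells and 19.3, 22.8 and 11.4 CPM in all other cells (log2 difference 0.96 ± 0.12), its partner CD14 was higher by 0.74 ± 0.10 and the NF-kappa-B inhibitor NFKBIA by 0.73 ± 0.08. The lower one was decorin, DCN, a matrix gene of fibroblasts (-2.41 ± 0.19). Against other myeloid cells none of 5 passed, with TLR4 at -0.28 ± 0.09.

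**Figure D4:**
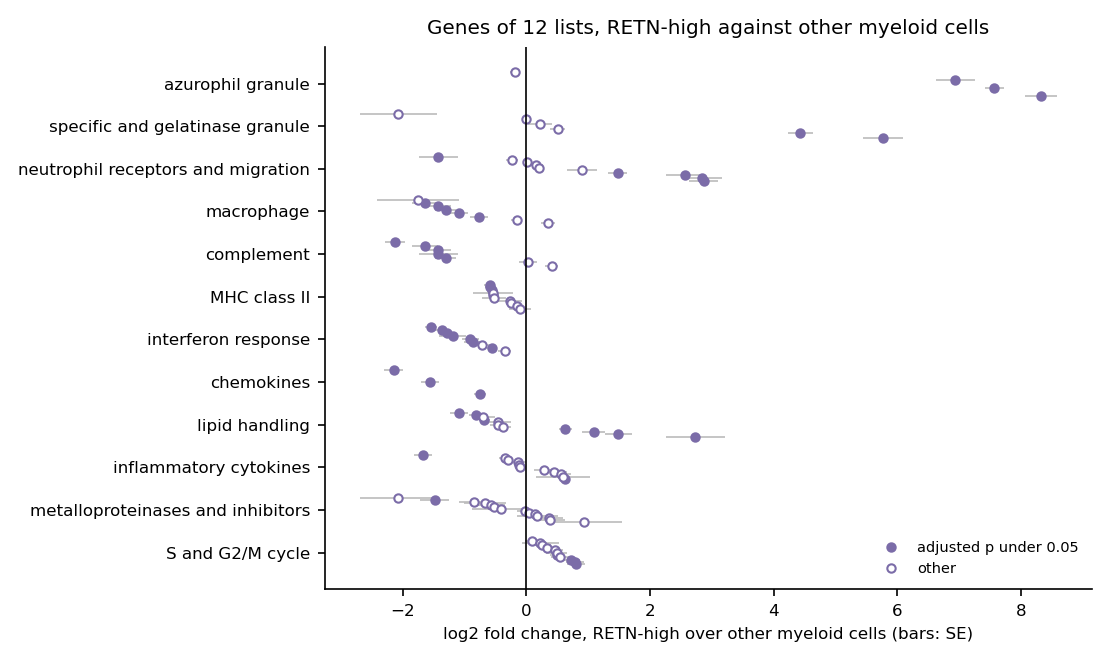
Log2 fold change of RETN-high over other myeloid cells for each tested gene of 12 lists, with SE bars; filled points passed an adjusted p under 0.05, open points did not. Azurophil genes, whose UMIs came almost wholly from the 23 azurophil cells, lie farthest right at 6.94 to 8.33. LTF and CRISP3 lie at 4.43 and 5.78, and macrophage, complement, MHC class II, interferon and chemokine genes lie mostly left of 0. VSIG4, unseen in RETN-high cells, is not drawn and a gene on 2 lists appears in both.

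Set against cells picked by neutrophil receptors, RETN-high cells had 5 of 8 macrophage markers higher and 1 lower, while inflammatory cytokines went both ways. The 105 and 135 such cells of replicates 1 and 2 had CSF3R, CXCR1 and CXCR2 at 4 or more UMIs per 10,000 together and no RETN UMI; replicate 3 had 9 and was left out. At a limit of 2000 UMIs, below which replicate 3 has no cell, replicates 1 and 2 had 23 and 31. Their medians were 1522 and 1439 UMIs, against 4792 and 5696 UMIs in RETN-high cells. With edgeR and Benjamini-Hochberg adjustment over 7539 genes, 1020 were higher and 1022 lower, or 27.1% of those tested (13.5% higher, 13.6% lower), from 2 animals. Of 11 lysosomal genes 6 were higher and 1 lower, and of 10 cycle genes 7 were higher. MRC1 stood at 782 and 1026 CPM in RETN-high cells and 305 and 375 CPM in CSF3R or CXCR2-high cells (log2 difference 1.32 ± 0.18), and MSR1 at 418 and 352 CPM in RETN-high cells and 99.96 and 49.7 CPM in CSF3R or CXCR2-high cells (log2 difference 2.32 ± 0.25). FBP1, an enzyme of gluconeogenesis, stood at 335 and 693 CPM in RETN-high cells and 19.99 and 57.3 CPM in CSF3R or CXCR2-high cells, where it rested on 4 and 15 UMIs (log2 difference 3.61 ± 0.27).

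Of 10 inflammatory cytokines tested 4 were higher and 4 lower, where 13.5% of all genes tested were higher and 13.6% lower. TNF was higher, at 544 and 876 CPM in RETN-high cells and 234.9 and 409 CPM in CSF3R or CXCR2-high cells (log2 difference 1.05 ± 0.18), as were IL10, IL18 and TGFB1, the first 2 from 1 and 5 UMIs in CSF3R or CXCR2-high cells. In the other direction, CFD stood at 1082 and 727 CPM in RETN-high cells and 8326 and 7178 CPM in CSF3R or CXCR2-high cells (log2 difference -3.21 ± 0.18). ACOD1, which makes itaconate, was lower by a log2 difference of -4.38 ± 0.19, the prostaglandin synthase PTGS2 by -3.31 ± 0.18, the lipopolysaccharide binding protein LBP by -3.25 ± 0.21 and the cytokine OSM by -2.83 ± 0.18. IL1B stood at 2443 and 2081 CPM in RETN-high cells and 8951 and 7874 CPM in CSF3R or CXCR2-high cells (log2 difference -1.99 ± 0.17), and PADI4 and FPR1 differed by -2.37 ± 0.20 and -1.86 ± 0.21. All 4 calls among the 6 neutrophil receptor and migration genes tested were lower, and 8 of 9 interferon genes were lower. LTF was higher, at 553 and 177 CPM in RETN-high cells against 124.9 and 11.47 CPM in CSF3R or CXCR2-high cells (log2 difference 2.504 ± 0.26). MPO was at 42.5 and 82.5 CPM in RETN-high cells, with 0 UMIs in CSF3R or CXCR2-high cells of both animals, so no fold is given. FCN1 was lower by a log2 difference of -1.09 ± 0.18, but with each cell thinned to 1000 UMIs the difference was 0.23 with no call. With cells of at least 2000 UMIs the counts were 500 higher and 361 lower.

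Within the RETN-high cells, 50, 30 and 99 cells were MMP8-high, with at least 4 MMP8 UMIs per 10,000 and at least 2 UMIs, and 310, 142 and 654 had no MMP8 UMI. Depth differed by construction, with medians of 6746, 13106 and 9258 UMIs in MMP8-high cells and 3028, 2902 and 8618 UMIs in MMP8-zero cells. With edgeR and Benjamini-Hochberg adjustment over 6636 genes, 87 were higher and 152 lower in MMP8-high cells, or 3.6% of those tested (1.31% higher, 2.29% lower). Other specific granule genes were higher, 3 of 6 tested and none lower. The counts moved with each animal left out, to 32 higher and 65 lower without replicate 1, 162 and 329 without replicate 2, and 49 and 68 without replicate 3. With cells matched on UMIs the counts were 60 higher and 68 lower.

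LTF stood at 956, 543 and 334 CPM in MMP8-high cells and 414, 117 and 93.0 CPM in MMP8-zero cells, higher within each animal (log2 difference 1.78 ± 0.16; edgeR with Benjamini-Hochberg adjustment, adjusted p = 0.00021). With cells matched on UMIs the difference was 1.94 with no call (adjusted p = 0.063, edgeR with Benjamini-Hochberg adjustment). CRISP3 was at 220.4, 56.5 and 101 CPM in MMP8-high cells and 70.6, 11.4 and 7.35 CPM in MMP8-zero cells (log2 difference 2.59 ± 0.33). Matched on UMIs it too had no call, at 1.61 (adjusted p = 0.076, edgeR with Benjamini-Hochberg adjustment). MMP9, which neutrophils store in gelatinase granules, was at 216, 202 and 83.7 CPM in MMP8-high cells and 17.8, 70.8 and 13.4 CPM in MMP8-zero cells (log2 difference 2.59 ± 0.30), the groups apart in each animal. FCN1, IL1R2, PADI4 and FPR1 were higher by 2.40 ± 0.20, 1.81 ± 0.19, 1.70 ± 0.33 and 1.01 ± 0.16. The endothelin gene EDN1, a vasoconstrictor peptide, had the largest positive fold among the genes named by the rule, at 69.9, 47.8 and 63.5 CPM in MMP8-high cells and 4.57, 8.33 and 7.50 CPM in MMP8-zero cells (log2 difference 3.22 ± 0.27). It rested on 33, 22 and 66 UMIs in MMP8-high cells. Without replicate 1, and also without replicate 3, PADI4 and FPR1 had no call. SVIP, SERPINB4, CD69, LPL, SAMSN1, RHOF and HEMK1 were higher by 0.95 to 1.82 on the log2 scale.

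ELANE and PRTN3 UMIs lay in few cells. ELANE was at 0, 0 and 2 UMIs in MMP8-high cells of the 3 animals and at 560, 598 and 2073 UMIs in MMP8-zero cells, and PRTN3 was at 1 UMI in MMP8-high cells of each animal, against 389, 473 and 1304 UMIs in MMP8-zero cells. These MMP8-zero UMIs come almost wholly from the 23 azurophil cells described above, of which a share of 10.4%, that of MMP8-high cells in the class, would be few, so nothing is read from this. The 4 called macrophage markers of 8 tested were lower, where 2.29% of all genes tested were lower. C1QA stood at 150.5, 369 and 241 CPM in MMP8-high cells and 670.3, 532 and 861 CPM in MMP8-zero cells (log2 difference -1.44 ± 0.24), and C1QB and CSF1R, the receptor that keeps macrophages alive, differed by -1.37 ± 0.22 and -0.75 ± 0.16; none of the 3 passed without replicate 1 or without replicate 3. CTSD and CTSB were lower by -1.12 ± 0.11 and -0.90 ± 0.12. MRC1 was not, at 756, 1061 and 930 CPM in MMP8-high cells and 806, 887 and 1070.0 CPM in MMP8-zero cells. Among the MMP8-high cells, 21, 24 and 68 also reached the limit for C1Q chains or MRC1, and 26, 11 and 28 that for LTF or CRISP3.

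The other genes lower in MMP8-high cells were CFD, at 246, 141 and 134 CPM in MMP8-high cells and 1829.6, 1552 and 566 CPM in MMP8-zero cells (log2 difference -2.72 ± 0.20), ACOD1 (-2.26 ± 0.30), CYP7A1 (-2.35 ± 0.31) and the matrix protein MGP (-2.56 ± 0.30). With cells matched on UMIs the ACOD1 difference was -0.75 with no call. MGP had no call at the pan-myeloid minimum, nor CYP7A1 at a mitochondrial limit of 10%. The shallow CSF3R or CXCR2 kind, which by the order of kinds held no MMP8-high cell, had ACOD1 at 740, 1087 and 342 CPM. Its part in the CFD and ACOD1 differences was not tested. Of 8 interferon genes 4 were lower, where 2.29% of all genes tested were lower. IFIT2 stood at 21.2, 21.7 and 1.93 CPM in MMP8-high cells and 137, 121 and 10.0 CPM in MMP8-zero cells (log2 difference -2.48 ± 0.23). Osteopontin, SPP1, differed by -3.67 ± 0.23, but only replicate 2 had it at more than 10.2 CPM, with 406 CPM in MMP8-high and 5745 CPM in MMP8-zero cells, and at RETN of 10 or more UMIs per 10,000 the difference was -0.84 with no call. RETN itself was at 3157, 1906 and 3891 CPM in MMP8-high cells and 1812, 1379 and 1968 CPM in MMP8-zero cells, given without a test as the rule used it. Summed epithelial markers were 740, 69.5 and 2186 CPM in MMP8-high cells and 175, 90.5 and 176 CPM in MMP8-zero cells; SFTPC alone was 2131 CPM in MMP8-high cells of replicate 3 and the secretoglobin SCGB3A2 629 CPM in those of replicate 1, and their part in the results was not tested. TOP2A was higher by 0.86 ± 0.18 with an adjusted p of 0.028 (edgeR with Benjamini-Hochberg adjustment) and MCM3 by 0.86 ± 0.14; TOP2A did not pass without replicate 1 or replicate 3, and MCM3 did not without replicate 3.

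**Figure D5:**
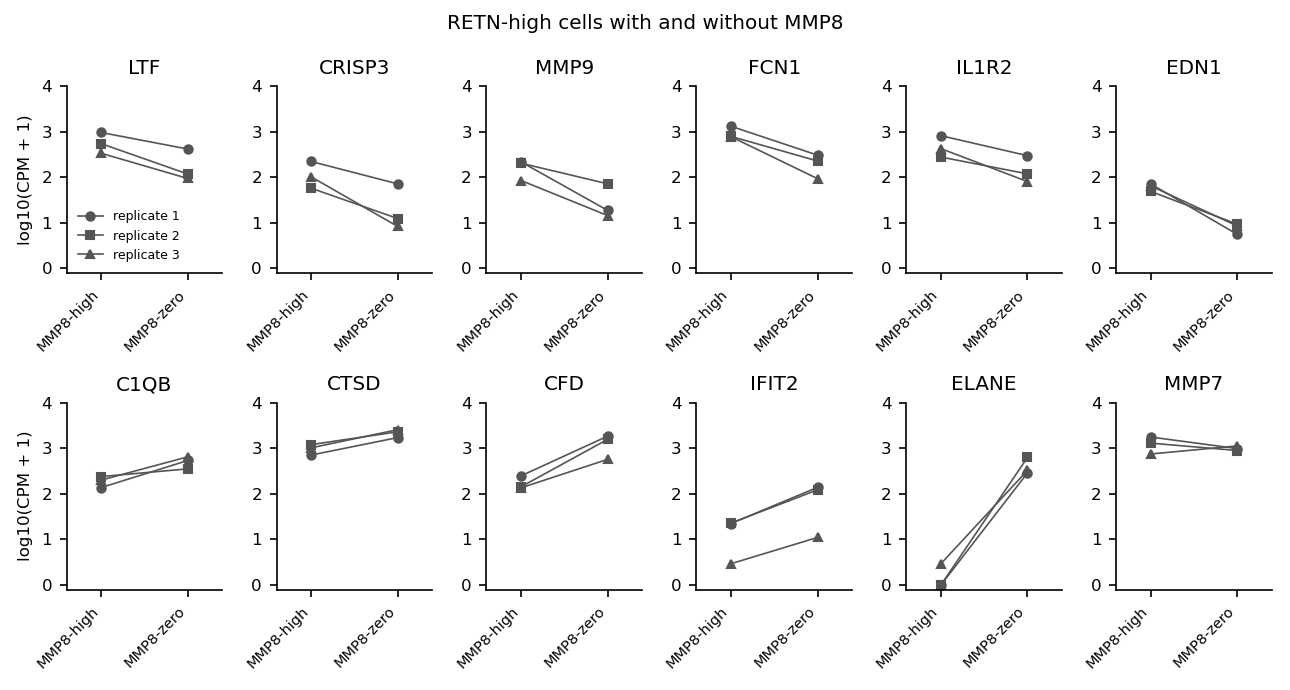
Level of 12 genes, as log10 of CPM plus 1, in RETN-high cells with high MMP8 (left of each pair) and with none (right), lines joining the sums of 1 animal. LTF, CRISP3, MMP9, FCN1, IL1R2 and EDN1 were higher in MMP8-high cells in each animal, C1QB, CTSD, CFD and IFIT2 lower, ELANE came almost wholly from the 23 azurophil cells, and MMP7, given without a test, was higher in replicates 1 and 2 and lower in replicate 3.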

How the data were processed

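Single-cell RNA was measured in lung tumours of 3 animals. The deposited files hold raw UMI counts per gene and barcode, not normalized, made by the authors with Cell Ranger (version 7.1.0 per the file headers, version 8.0.0 per the submitters' processing notes); the sources used here give neither genome build nor annotation. Counts were summed per animal and cell class and given as counts per 1000000 UMIs of the sum (CPM). Sums were compared with edgeR 4.0.16 (R 4.3.3) by quasi-likelihood tests with TMM scaling, its default filter on low counts, Benjamini-Hochberg adjustment over all genes tested and a threshold of 0.05. Both sums of a pair come from the same animal, so the animal was the block. RETN, GPNMB and the CD3 genes left every fit; MMP8 and MMP7, and genes that chose a comparison class, are described without a test. A class entered with at least 20 cells per animal. DESeq2 1.42.0 was an alternative, beside other thresholds, depth limits, thinning and each animal left out; the alternatives without azurophil cells and with a pan-myeloid minimum were added after the data were seen. Doublet scores came from an own implementation of the Scrublet score.

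The members and all lists (17 marker and 19 gene lists) were chosen with earlier results of these data known. Named were the 15 genes with the largest positive and 10 with the largest negative log2 fold change past the threshold, with 1 direction in all animals and a mean of at least 50 CPM in the higher class, members of the lists with a mean of at least 20 CPM in either class, and RETN, MMP8 and MMP7; kinds of cells, the genes that describe them, list members called at a lower level and genes left out to save space were chosen after their values were seen. The scripts were tested on simulated counts. No feature ID matched the reference table (0 matches), so names come from the files, and no sequence is shown.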

Additional observations from a re-analysis of the deposited data

How the results depend on the processing

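The share of RETN-high cells, a mean of 7.08%, ranged over 4.69% to 8.28% under other RETN limits, depth and mitochondrial limits, doublet removal and a pan-myeloid minimum, and over 3.93% to 9.43% with 1 animal left out. Both sums of every pair come from 1 animal, so pairing by animal rests on the design. With no replicate block the counts of genes higher and lower were 797 and 1950 against all other cells, 7 and 9 against other myeloid cells, 324 and 561 against CSF3R or CXCR2-high cells, and 1 and 6 between MMP8-high and MMP8-zero cells. With each cell thinned to 1000 UMIs they were 889 and 1178, 185 and 208, 333 and 398, and 27 and 47. With no filter on low counts they were 538 and 829 against other myeloid cells, 1354 and 622 against CSF3R or CXCR2-high cells, and 157 and 364 by MMP8. DESeq2 gave 319 and 481 against CSF3R or CXCR2-high cells and 34 and 68 by MMP8, and a minimum of 2000 UMIs gave 500 and 361 against CSF3R or CXCR2-high cells. By MMP8, RETN at 10 or more per 10,000 gave 26 and 45, RETN at 2 or more gave 130 and 237, and cells matched on UMIs gave 60 and 68. With 1 animal left out the counts ranged over 21 to 379 higher and 64 to 474 lower against other myeloid cells, and 32 to 162 higher and 65 to 329 lower by MMP8. Thinning and matching leave fewer UMIs or cells; for the others the cause was not tested. Leaving out replicates 1 or 2 against CSF3R or CXCR2-high cells left 1 animal and gave no fit.

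Among named genes 9 values changed sign. Against all other cells these were ELANE without azurophil cells (-0.89) and MMP9 on thinned cells (0.92). Against other myeloid cells they were ELANE without azurophil cells (-0.13), MMP12 without replicate 2 (-0.0011, against 0.76 without replicate 3), and IL1B at RETN of 10 or more (0.082), on thinned cells (0.38) and without replicate 3 (0.012, against -0.17 without replicate 1). Against CSF3R or CXCR2-high cells it was FCN1 on thinned cells (0.23), and by MMP8 it was TOP2A at RETN of 10 or more (-0.030).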
